A study of Mus musculus with 6 samples.

Results

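Neutrophil granule genes were examined in perichondrium, the connective tissue sheath around cartilage and bone, of mouse limb bones at postnatal day 4. The 8 genes S100a8, S100a9, Ngp, Camp, Ltf, Elane, Mpo and Retnlg were selected by symbol from the 55536 genes of the count table. Their values in knockout and wild-type libraries were known when they were selected, so the difference between the groups is given for them as a description, with no p-value. RNA was sequenced in 3 libraries from wild-type mice, labelled WT, and in 3 libraries from mice labelled Fbn1Scx-/-, where 1 title adds ScxCRE and the other 2 add Koscx. Fbn1 encodes fibrillin-1, the microfibril protein mutated in Marfan syndrome, and the scleraxis gene Scx is active in tendon and ligament cells. In which cells the Cre acted, blood-derived cells included, was not tested. The exons deleted, the strain and whether Cre or floxed alleles were present in the wild-type mice were not stated in any source used here. Library titles carry a number, 1 knockout and 1 wild-type library to each, and the labels do not give its meaning. The libraries are called PC-mut-596, PC-mut-597 and PC-mut-795 (knockout) and PC-WT-596, PC-WT-597 and PC-WT-795 (wild type), and values listed for a group follow this order. The labels do not state that each library is a separate animal. A p-value therefore measures the spread between these libraries, which may be technical.

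Neutrophils are short-lived white blood cells made in bone marrow, and they store their antimicrobial proteins in granules that are filled in order as the cell matures. Azurophil granules come first, at the promyelocyte stage, and carry myeloperoxidase (Mpo) and neutrophil elastase (Elane). Specific granules follow and carry lactoferrin (Ltf), cathelicidin (Camp) and neutrophilic granule protein (Ngp). S100a8 and S100a9 encode the partners that form calprotectin, a calcium- and zinc-binding protein of the neutrophil cytosol that monocytes and stressed epithelium also make, and Retnlg encodes a resistin-like secreted protein of mature neutrophils. Transcripts of the early granule proteins are largely gone from circulating neutrophils, while those of S100a8 and S100a9 persist.

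Sequences are shown for the calprotectin pair, which carried most of the signal, for Ngp as a specific granule gene, and for Elane as the azurophil gene that was almost undetected. Each is the stretch of the RefSeq promoter window (GRCm38.p6, 250 bases before to 50 bases after the RefSeq start) that lies before the first exon base in both RefSeq and GENCODE M21. They are written 5′ to 3′ on the gene's strand, with matches to searched motifs in capitals.
S100a8, plus strand, chr3:90668821-90668977: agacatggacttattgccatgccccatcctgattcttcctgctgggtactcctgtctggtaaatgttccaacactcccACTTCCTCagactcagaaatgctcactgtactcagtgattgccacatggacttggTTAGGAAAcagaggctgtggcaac
S100a9, minus strand, chr3:90695722-90695971: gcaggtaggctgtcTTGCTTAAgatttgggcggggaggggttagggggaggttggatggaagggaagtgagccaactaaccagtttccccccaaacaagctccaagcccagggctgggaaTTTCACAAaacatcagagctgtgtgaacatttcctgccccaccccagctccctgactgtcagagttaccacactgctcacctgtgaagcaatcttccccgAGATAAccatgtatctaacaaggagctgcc
Ngp, plus strand, chr9:110419558-110419746: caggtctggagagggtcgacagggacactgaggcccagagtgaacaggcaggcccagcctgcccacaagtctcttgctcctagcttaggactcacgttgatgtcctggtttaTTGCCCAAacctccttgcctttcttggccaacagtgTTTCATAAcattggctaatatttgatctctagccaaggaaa
Elane, plus strand, chr10:79886062-79886246: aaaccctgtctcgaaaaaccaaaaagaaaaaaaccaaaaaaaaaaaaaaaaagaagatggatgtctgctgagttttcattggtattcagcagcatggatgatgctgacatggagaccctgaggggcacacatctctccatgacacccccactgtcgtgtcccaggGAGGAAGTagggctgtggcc

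All 8 genes had a RefSeq promoter window, and 5 motifs of blood-cell factors were searched on both strands of each whole window. The letters TTGCNNAA, a strict form of the C/EBP motif, were found in 4 of the 8 windows and in 10.8% of all 32851 windows of the same length. The looser C/EBP letters TTNNGNAA, which contain every strict match read on the other strand, were found in 5 of 8 and in 40.68% of all windows. The PU.1 letters GAGGAAGT were found in the windows of S100a8, Elane and Mpo, 3 of 8, against 3.202% of all windows. The RUNX letters TGTGGTT were in 0 of 8 windows and 5.269% of all, and the GATA letters AGATAA in 2 of 8 and 11.18% of all. The S100a8 window held the PU.1 letters on the minus strand from -172 to -165 and a loose C/EBP match from -117 to -110, counted from the RefSeq start. The S100a9 window held both C/EBP forms from -236 to -229, a further loose match from -130 to -123 and the GATA letters from -30 to -25. The Ngp window held C/EBP matches from -138 to -131, from -102 to -95 and from -11 to -4, of which the last lies outside the stretch printed above. The Elane window held the PU.1 letters alone, from -85 to -78, and no motif of the 5 was found in the Camp window. Such matches describe the letters of these windows and were not tested as binding sites.

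The genes lie at few places in the genome (GRCm38, GENCODE M21). S100a8 (ENSMUSG00000056054) spans chr3:90668978-90670035 on the plus strand, and S100a9 (ENSMUSG00000056071) spans chr3:90692632-90695721 on the minus strand, 22.596 kb away. On chromosome 9, Camp (ENSMUSG00000038357, chr9:109847379-109849617), Ngp (ENSMUSG00000032484, chr9:110419747-110423012) and Ltf (ENSMUSG00000032496, chr9:111019271-111042767) follow each other, with gaps of 570.129 kb and 596.258 kb. Elane (ENSMUSG00000020125) lies at chr10:79886247-79888215, Mpo (ENSMUSG00000009350) at chr11:87793581-87804413 and Retnlg (ENSMUSG00000022651) at chr16:48872621-48874496.

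Total counts per library were between 7209217 and 10316017, and levels are given in CPM, the count relative to the library's total after scaling by edgeR's TMM method. The targeted gene Fbn1 averaged 89.1 ± 28.1 CPM in the wild-type libraries against 7.96 ± 1.81 CPM in the knockout ones (SD, n = 3). The tissue label was checked with 12 perichondrial and tendon genes. Their summed level was between 37558 and 39251 CPM in the knockout and between 38638 and 39917 CPM in the wild-type libraries. This sum is mostly the collagen genes Col1a1, Col1a2 and Col3a1, so it says little about the rarer genes. In log2 fold change, knockout over wild type, 7 of the 12 were above 0 and 5 below, with Scx at -0.66. All 8 muscle genes of a further list were below 0, with a median of -1.08. Their summed level ranged from 1554 to 3459 CPM for knockout libraries and from 2344 to 8341 CPM for wild-type ones. The part of muscle content in the results below was not tested. Of 15712 genes that passed the filter on low counts, edgeR's quasi-likelihood test with Benjamini-Hochberg adjustment called 1, which was Fbn1, 0.00636% of the genes tested. The groups did not overlap in 11.9% of the genes tested. Xist was above 100 counts in PC-mut-596 and PC-mut-597 and at 4 or fewer in the other libraries, so 2 of the 3 knockout libraries stand apart in this X-inactivation transcript of females, and its part in the results below was not tested.

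The 8 genes together received 2031 counts in the 6 libraries, and S100a8 and S100a9 took 89.8% of them. Summed over the genes, the level was 43.2, 25.3 and 77.2 CPM in the knockout libraries, and 21.1, 37.2 and 23.4 CPM in the wild-type libraries. PC-mut-795 was the highest library, and PC-mut-597 lay within the wild-type range. The group means were 48.6 ± 26.3 CPM in the knockout libraries against 27.2 ± 8.69 CPM in the wild-type ones (SD, n = 3), a ratio of 1.78, and the difference was smaller than the SD of the knockout libraries. Without PC-mut-795 the knockout mean was 34.3 CPM and the ratio 1.26. In bulk tissue, a different number of cells of a type and a different amount of RNA per cell cannot be told apart.

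**Figure D1:**
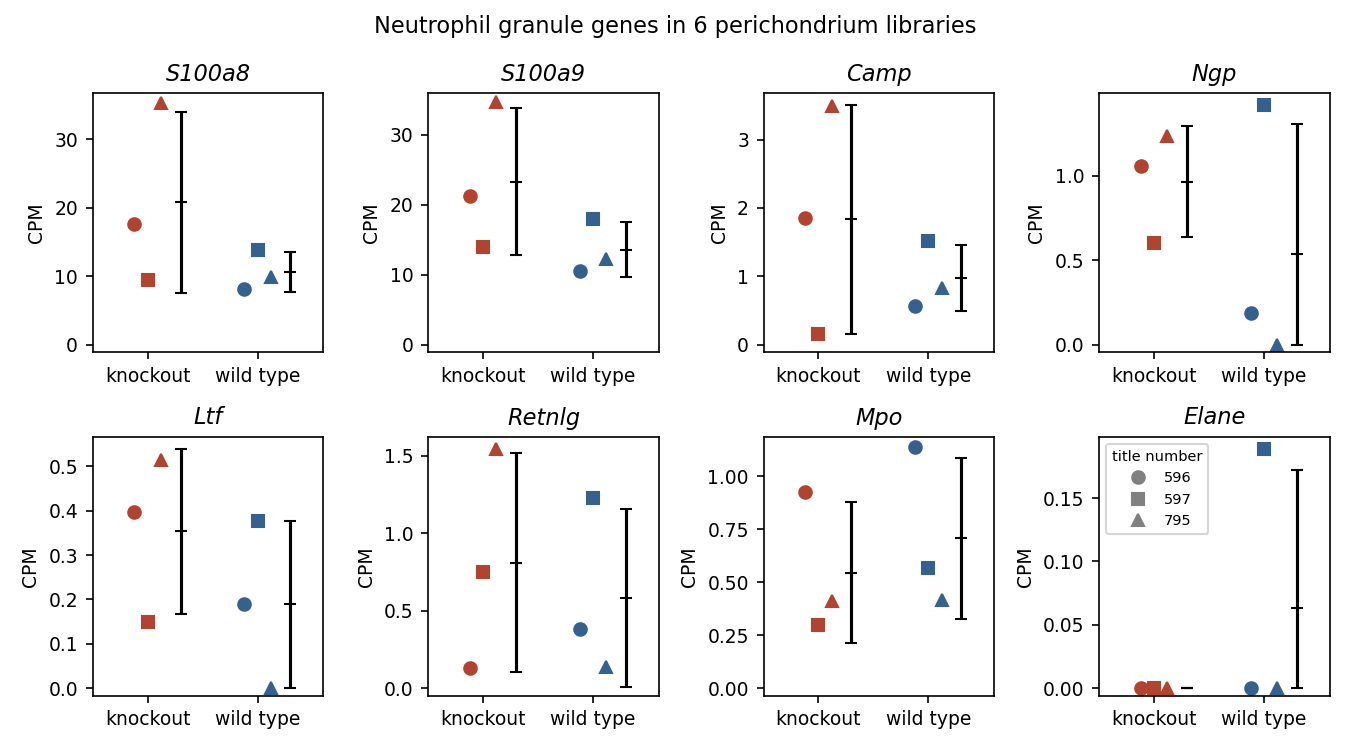
Level of each of the 8 genes (CPM, TMM-scaled, linear axis) in the 3 knockout and 3 wild-type libraries, with symbols for the number in the library's title and bars for the mean and SD of each group (n = 3, lower end stopped at 0). PC-mut-795 is the highest library for S100a8, S100a9, Camp, Ltf and Retnlg, and the groups overlap for every gene shown.

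S100a8, a subunit of calprotectin, received 133, 63 and 343 counts in the knockout libraries and 85, 147 and 71 counts in the wild-type libraries. These are 17.6, 9.45 and 35.3 CPM in knockout and 8.07, 13.9 and 9.84 CPM in wild type. PC-mut-596 and PC-mut-795 were above every wild-type library, and PC-mut-597 was below 2 of the 3. The mean was 20.8 ± 13.2 CPM in the knockout libraries against 10.6 ± 2.97 CPM in the wild-type ones (SD, n = 3), and the log2 fold change, knockout over wild type, was 0.98 (SE 0.38). Leaving out PC-mut-795 reduced the log2 fold change to 0.35 (SE 0.35).

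S100a9, the partner of S100a8 in calprotectin, received 161, 93 and 337 counts in the knockout libraries and 111, 191 and 88 counts in the wild-type libraries. These are 21.3, 13.9 and 34.7 CPM in knockout and 10.5, 18.0 and 12.2 CPM in wild type. The pattern was that of S100a8, with PC-mut-597 again inside the wild-type range. The mean was 23.3 ± 10.5 CPM in the knockout libraries against 13.6 ± 3.93 CPM in the wild-type ones (SD, n = 3), with knockout over wild type, in log2, at 0.78 (SE 0.32), which was 0.37 (SE 0.32) without PC-mut-795. In each library the counts of the pair stood in a similar ratio, S100a8 to S100a9, of 0.83, 0.68 and 1.02 in the knockout libraries and 0.77, 0.77 and 0.81 in the wild-type libraries. The ratio was 0.840 ± 0.171 in knockout and 0.781 ± 0.0227 in wild type (SD, n = 3), so the difference of the means lay within the knockout spread.

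The authors' deposited table of 1643 genes lists S100a8 at a log2 fold change of 0.97 and S100a9 at 0.78, and lists none of the other 6 genes. A DESeq2 fit of the count table gave the fold change of the authors' deposited table within 1e-04 for all 1609 of its genes that could be matched by symbol or identifier. Of these, 1608 had an unadjusted p under 0.05 in that fit and 4 an adjusted p under 0.05. Presence in the authors' deposited table thus goes with the unadjusted p of DESeq2. Of the 3 genes that passed the filter on low counts (S100a8, S100a9 and Camp), 0 were called by edgeR, beside 0.00636% of all genes tested. DESeq2 called 0 of the 8, but it gives no adjusted p to genes of low mean count. For the genes other than S100a8 and S100a9, its lack of a call may therefore mean no adjusted p. The groups overlapped for all 8 genes, where 11.9% of all genes tested had groups that did not, 5.66% with knockout higher. These counts are printed as a description, since the same contrast was known when the genes were selected.

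The specific granule genes were far less abundant. Camp, the precursor of the antimicrobial peptide CRAMP, received 14, 1 and 34 counts in the knockout libraries and 6, 16 and 6 counts in the wild-type libraries. It was thus high in PC-mut-795, intermediate in PC-mut-596 and PC-WT-597, and lowest of all in PC-mut-597. Its mean was 1.83 ± 1.67 CPM in the knockout libraries against 0.970 ± 0.485 CPM in the wild-type ones (SD, n = 3), and its log2 fold change of 0.95 (SE 0.69) was 0.06 (SE 0.81) without PC-mut-795.

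Ngp, a member of the cystatin and cathelicidin-like family, received 8, 4 and 12 counts in the knockout libraries and 2, 15 and 0 counts in the wild-type libraries. The highest and the lowest library for Ngp were both wild type. Its mean was 0.964 ± 0.327 CPM in the knockout libraries against 0.535 ± 0.768 CPM in the wild-type ones (SD, n = 3), and it did not pass the filter on low counts. Pooled over each group, 24 counts stood against 17, a ratio of 1.67 per effective library size with an exact 95% counting interval (Clopper-Pearson, counting error only) of 0.860 to 3.31. This interval takes reads as independent, which amplified cDNA does not ensure, and leaves out the spread between libraries. It may thus be too narrow, as may the counting intervals given below.

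Ltf, which encodes the iron-binding lactoferrin, received 3, 1 and 5 counts in the knockout libraries and 2, 4 and 0 counts in the wild-type libraries. The pooled ratio of 9 to 6 counts was 1.77, with a counting interval of 0.564 to 6.06, so that no difference in either direction was detectable at this depth. Its libraries with 0 to 3 counts were at or under the level that a count of 0 allows, 3 counts or between 0.283 and 0.450 CPM depending on the library.

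The azurophil granule genes had few counts. Elane received 0 counts in 5 libraries and 2 counts in PC-WT-597, so both groups were under the limit of 3 counts and no fold is given. Mpo received 7, 2 and 4 counts in the knockout libraries and 12, 6 and 3 counts in the wild-type libraries. Mpo was highest in PC-WT-596 and lowest by count in PC-mut-597. Its mean was 0.545 ± 0.333 CPM in the knockout libraries against 0.707 ± 0.382 CPM in the wild-type ones (SD, n = 3), a pooled ratio of 0.732 with a counting interval of 0.337 to 1.53. Elane and Mpo were the genes whose mean was lower in knockout, while the mean was higher in knockout for the other 6 of the 8.

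Retnlg, the resistin-like gene of mature neutrophils, received 1, 5 and 15 counts in the knockout libraries and 4, 13 and 1 counts in the wild-type libraries. PC-mut-795 and PC-WT-597 were its high libraries, and a library with 1 count was present in each group. Its mean was 0.808 ± 0.707 CPM in the knockout libraries against 0.582 ± 0.571 CPM in the wild-type ones (SD, n = 3), with a pooled ratio of 1.38 and a counting interval of 0.700 to 2.75. Without PC-mut-795 the ratio of the group means was 0.758, on the other side of 1.

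Compared per length of exon, S100a9 was the most abundant of the genes, at 26.0 ± 7.53 CPM per kilobase in wild type and 44.6 ± 20.1 in knockout (SD, n = 3). S100a8 followed at 15.3 ± 4.28 CPM per kilobase in wild type and 29.9 ± 19.0 in knockout, and was below S100a9 in each of the 6 libraries. Camp was the next in wild type, at 1.28 ± 0.640 CPM per kilobase, and was followed by Retnlg at 0.981 ± 0.964 and Ngp at 0.438 ± 0.629. Mpo was at 0.207 ± 0.112, Elane at 0.0639 ± 0.111 and Ltf at 0.0548 ± 0.0547 CPM per kilobase in wild type. In wild type, neighbours in this order from Camp down to Ltf differed by less than the larger of their SDs, except Mpo and Elane, whose difference was above both. S100a9 and S100a8 differed by more than their SDs in wild type and by less than the larger SD in knockout. The step from S100a8 to Camp was larger than either SD in both groups.

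**Figure D2:**
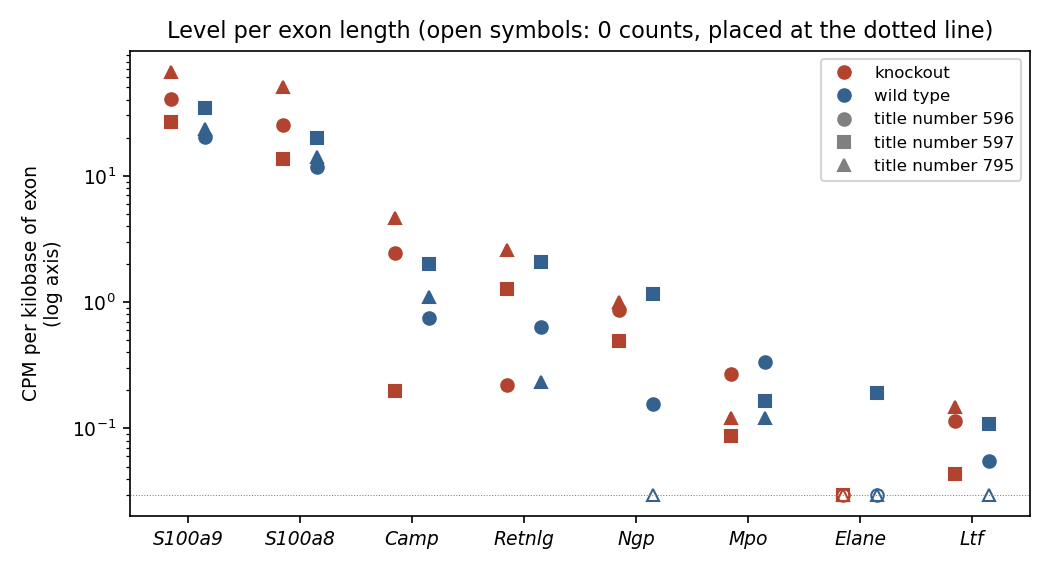
Level of the 8 genes in CPM per kilobase of exon (log axis), in order of the wild-type mean, with 1 point per library; open symbols mark 0 counts and are placed at the dotted line. S100a9 and S100a8 stand above 10 in every library, and the other 6 genes below 5.

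The 6 genes other than the calprotectin pair summed to 4.36, 1.95 and 7.20 CPM in the knockout libraries and to 2.47, 5.28 and 1.39 CPM in the wild-type libraries. PC-mut-795 and PC-WT-597 were the highest library of their group. Per 100 counts of S100a8 and S100a9, the 6 genes received 11.2, 8.33 and 10.3 counts in the knockout libraries and 13.3, 16.6 and 6.29 counts in the wild-type libraries. The ratio of the granule genes to the calprotectin pair thus varied between libraries, and the groups overlapped in it. Across the 6 libraries, which share their preparation, Pearson's r of log2 CPM was 0.99 between S100a8 and S100a9, 0.87 between S100a8 and Camp and 0.82 between S100a9 and Camp, as a description over few points.

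Red blood cell transcripts were compared with these genes because blood carries both. The beta-globin gene Hbb-bs was at 1806, 3049 and 14520 CPM in the knockout libraries and at 3374, 8984 and 3744 CPM in the wild-type libraries. Its near-identical neighbour Hbb-bt shares its sequence, so the split of reads between them is uncertain. The summed level of all 13 erythroid genes in the table had its highest library in each group in the same libraries, PC-mut-795 at 35061 CPM and PC-WT-597 at 34112 CPM. It was between 4691 and 35061 CPM in the knockout and between 10438 and 34112 CPM in the wild-type libraries. PC-mut-795 was thus highest for Hbb-bs, for the erythroid sum and for S100a8, while PC-mut-596 was lowest for Hbb-bs and second highest for S100a8. The alpha-globin genes Hba-a1 and Hba-a2, near-identical copies, and the heme synthesis gene Alas2 were instead highest in PC-WT-597. Hba-a1 was at 9445 CPM there and 4971 CPM in PC-mut-795, Hba-a2 at 9142 and 4778 CPM, and Alas2 at 58.5 and 47.8 CPM. Per 1000 Hbb-bs counts, S100a8 received 9.73, 3.10 and 2.43 counts in the knockout libraries and 2.39, 1.54 and 2.63 counts in the wild-type libraries. The part of red blood cell content in the differences of these genes was not tested.

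**Figure D3:**
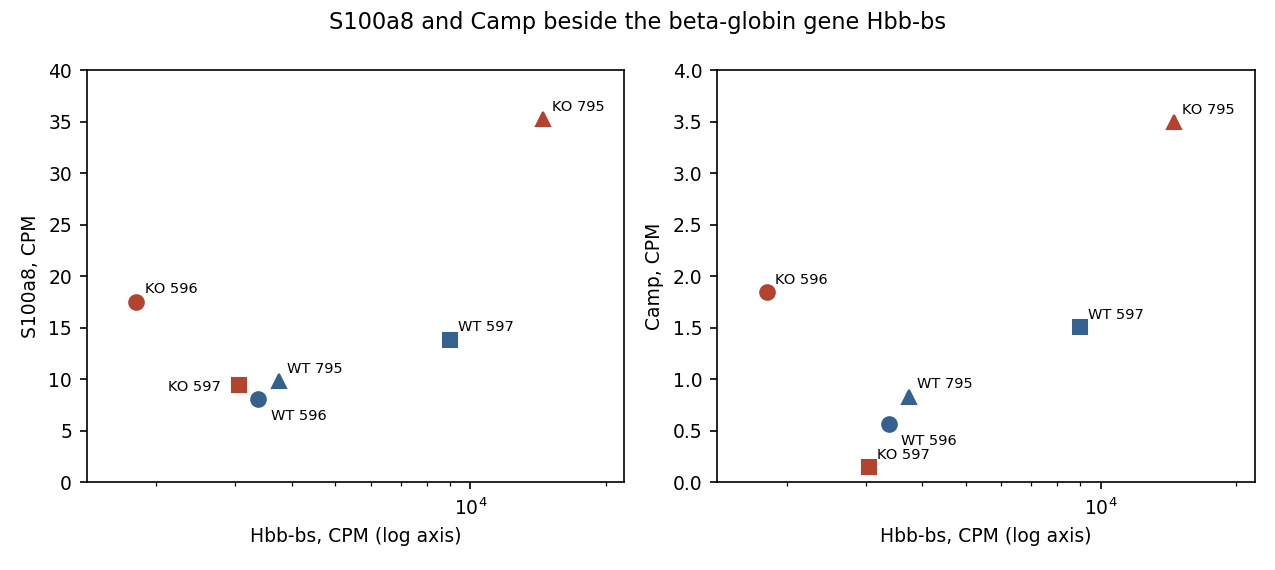
S100a8 (left) and Camp (right) in CPM on linear axes against Hbb-bs in CPM on a log axis, with 1 point per library, red for knockout (KO) and blue for wild type (WT). PC-mut-795 is highest on both axes, and PC-mut-596 is lowest for Hbb-bs at 1806 CPM and second highest for S100a8 at 17.6 CPM.

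The regulators that define the neutrophil lineage were at or near 0. Cebpe, the C/EBP factor needed for specific granules, had 0 counts in all 6 libraries, and Gfi1, a transcriptional repressor needed for neutrophil differentiation, had 1, 4 and 0 counts in the knockout libraries and 0 in every wild-type library. The receptor genes Csf3r and Cxcr2, for the growth factor G-CSF and for neutrophil chemokines, had at most 2 and 3 counts in any library. The broader myeloid factor genes Cebpa and Spi1, which macrophages also use, were detected. Cebpa was at 2.87 ± 0.310 CPM in the knockout and 2.87 ± 1.07 CPM in the wild-type libraries, and Spi1, which encodes PU.1, at 2.74 ± 0.599 and 4.28 ± 3.02 CPM (SD, n = 3). Spi1 had a log2 fold change of -0.68 (edgeR adjusted p = 0.551), which was -0.05 without PC-WT-596 and -0.22 with a correction for GC content. Runx1, a factor of blood and of skeletal cells, was at 58.7 ± 7.39 CPM in the knockout and 50.3 ± 16.8 CPM in the wild-type libraries (SD, n = 3), and Cebpd at 9.02 ± 0.982 and 12.2 ± 3.72 CPM. Neither passed the edgeR test, with an adjusted p of 0.691 for Runx1 and 0.519 for Cebpd. Of the 11 tested genes in the list of granulocyte-forming factors and receptors, 2 were above 0 and 9 below in log2 fold change. Their median was -0.44, beside 0.01 for all genes tested. By edgeR 0 of the 11 passed, and 1 had an unadjusted p under 0.05, beside 10.5% of all genes.

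Other granule and neutrophil genes were taken from 4 lists, of azurophil, specific, and gelatinase and secretory proteins and of late neutrophil transcripts. Of 51 such genes in the table, 13 had at most 3 counts in every library, and 26 passed the filter on low counts. Of those 26, 13 were above 0 and 13 below 0 in log2 fold change, with a median of -0.01 beside 0.01 for all 15712 genes tested. By edgeR 0 of the 26 passed over all genes tested, and 0 passed by DESeq2, which called 4 genes in all. An unadjusted edgeR p under 0.05 was found for 4 of the 26, beside 10.5% of all genes tested. All 4 were lower in knockout. The groups did not overlap for 2 of the 26, beside 11.9% of all genes. These were Ctsc and Arg2, both higher in knockout.

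Other azurophil proteases were also scarce. Prtn3, which encodes proteinase 3, had 1, 0 and 2 counts in the knockout libraries and 1, 6 and 1 counts in the wild-type libraries, and cathepsin G (Ctsg) had between 3 and 15 counts in every library. Ctsg was highest in PC-mut-795 with 15 counts, and its group means were 0.796 ± 0.647 CPM in the knockout libraries against 0.719 ± 0.215 CPM in the wild-type ones (SD, n = 3). Cathepsin C (Ctsc), which activates these proteases and is made by many cells, was at 41.5 ± 4.30 and 35.2 ± 0.897 CPM. Lysozyme (Lyz2), shared by neutrophils and macrophages, was at 55.9 ± 8.05 CPM in the knockout and 69.2 ± 34.9 CPM in the wild-type libraries (SD, n = 3).

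Among other specific granule genes, lipocalin 2 (Lcn2) had between 1 and 8 counts in every library. Chil3, which encodes a chitinase-like protein of neutrophil precursors and monocytes, had 5, 1 and 9 counts in the knockout libraries and 0 counts in every wild-type library. Over the group, 15 counts in knockout against a limit of 3 counts in wild type is a ratio of 5.91 per effective library size. This ratio takes the 15 counts as exact, so it is not a lower bound, and PC-mut-597 had 1 count. Chil3 did not pass the filter on low counts and has no test. Cyba, a subunit of the NADPH oxidase made by all phagocytes, had a log2 fold change of -0.46 (edgeR adjusted p = 0.475), which was -0.05 with the GC correction.

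Mmp9, gelatinase B, is also made by osteoclasts and was at 54.1 ± 17.8 CPM in the knockout and 77.3 ± 19.95 CPM in the wild-type libraries (SD, n = 3), with knockout over wild type, in log2, at -0.52 (edgeR adjusted p = 0.480). Mmp8, neutrophil collagenase, was at 1.73 ± 0.559 and 1.16 ± 0.432 CPM (SD, n = 3), with knockout over wild type, in log2, at 0.59 (edgeR adjusted p = 0.597). BC100530, a stefin gene of neutrophils with near-identical neighbours and therefore an uncertain count, was at 5.58 ± 2.67 CPM in the knockout and 4.23 ± 1.93 CPM in the wild-type libraries (SD, n = 3).

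Several genes that draw neutrophils had few counts. The chemokine genes Cxcl1, Cxcl2, Cxcl3 and Cxcl5 had at most 11, 3, 0 and 1 counts in any library, and the G-CSF gene Csf3 had 0 in all. Cxcl12, the ligand that retains neutrophils in bone marrow, was at 49.0 ± 7.75 CPM in the knockout and 49.1 ± 6.75 CPM in the wild-type libraries (SD, n = 3). Tlr4, a receptor for calprotectin and for endotoxin, was at 10.2 ± 2.08 CPM in the knockout and 6.77 ± 1.45 CPM in the wild-type libraries (SD, n = 3), with knockout over wild type, in log2, at 0.59 (edgeR adjusted p = 0.475). Vcam1, an adhesion molecule of endothelial and stromal cells, was at a log2 fold change of 0.40 (edgeR adjusted p = 0.500). With the GC correction Tlr4 was at 0.19 and Vcam1 at 0.06. Of 6 tested genes in this list, 2 were above 0 and 4 below, and 0 passed by edgeR, with 1 at an unadjusted p under 0.05. That gene, named after its value was seen, was Icam1, an adhesion molecule for leukocytes, at 2.59 ± 0.274 CPM in the knockout and 4.95 ± 2.44 CPM in the wild-type libraries (SD, n = 3).

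The other S100 genes of chromosome 3 that passed the filter were read beside S100a8 and S100a9, a comparison chosen after the values were seen. S100a4, made by fibroblasts and leukocytes, was at a log2 fold change of 0.32 (edgeR adjusted p = 0.580), and S100a6 at -0.46 (edgeR adjusted p = 0.483). S100a11, a widely made S100 protein, was at -1.05 (edgeR adjusted p = 0.459), with 110 CPM in the knockout and 228 CPM in the wild-type libraries, and passed without PC-WT-795 (edgeR adjusted p = 0.0117). S100a1, S100a13, S100a16 and S100a10 lay between -0.14 and -0.01. S100a8 and S100a9 had the highest log2 fold changes of these 9 genes, a rank that is only a description, since the pair was selected with these values known.

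Markers of other cells that could carry S100a8 or granule transcripts were summed in each library. The 12 macrophage genes were between 221 and 262 CPM in the knockout and between 206 and 260 CPM in the wild-type libraries, and the ranges overlapped. Single macrophage genes went both ways, with 6 above 0 and 6 below in log2 fold change, from -1.35 to 0.64 with a median of -0.10. By edgeR 0 of these 12 passed, and 4 had an unadjusted p under 0.05, beside 10.5% of all genes. The 11 monocyte genes, whose sum is mostly fibronectin (Fn1), were between 543 and 565 CPM in the knockout and between 538 and 592 CPM in the wild-type libraries. Without Fn1, a step chosen after the values were seen, the other 10 monocyte genes summed to 122.5, 97.2 and 96.4 CPM in the knockout libraries and to 87.0, 80.5 and 82.2 CPM in the wild-type libraries. The groups did not overlap in this sum, which was higher in knockout. Of single genes tested, 5.66% did the same. The highest library of the sum was PC-mut-596, whereas that of S100a8 and S100a9 was PC-mut-795. The widest gaps were in F13a1 (mean 36.5 CPM in knockout, 24.5 in wild type) and Ms4a6c (18.1 and 11.1). Ly6c2 and Cx3cr1 were lower in knockout, at a log2 fold change of -0.23 and -0.53. Of the 8 monocyte genes tested, 5 were above 0 and 3 below in log2 fold change, with a median of 0.31 beside 0.01 for all genes tested. By edgeR 0 of these 8 passed, and 2 had an unadjusted p under 0.05, beside 10.5% of all genes. Monocytes also make S100a8 and S100a9, and the part of monocyte content in the differences of these genes was not tested. The 10 epidermal genes were between 12.8 and 13.7 CPM in the knockout and between 12.5 and 17.1 CPM in the wild-type libraries, with Krt14 and Krt15 at 0 in all libraries. The 8 mast cell genes were between 112 and 163 CPM in the knockout and between 141 and 304 CPM in the wild-type libraries. The 11 eosinophil and basophil genes summed to at most 2.26 CPM in the knockout and 0.950 CPM in the wild-type libraries, with 7 genes at 0 in all libraries, Prg2 and Epx among them. Of 12 B-lineage genes, 8 had at most 3 counts in every library, and of 10 T and NK cell genes also 8. Of the 117 genes of the lists that were tested, the 8 excluded, 0 passed by edgeR and 0 by DESeq2.

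The 10 genes whose log2 CPM most resembled the mean pattern of S100a8, S100a9 and Camp over the 6 libraries were taken from 15693 candidates. They were Trim13, Gm7308, AC152396.2, Ppp2r3c, Pcnx4, Maoa, Sp140, Rps15a-ps7, Ermard and Socs7, with Pearson's r from 0.94 to 0.99 as a description over 6 libraries. Sp140, a nuclear body gene of leukocytes, ran from 1.04 CPM in PC-WT-596 to 2.37 CPM in PC-mut-795. Gm7308, AC152396.2 and Rps15a-ps7 are annotated as processed pseudogenes, whose reads may belong to their parent genes.

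The log2 fold changes of the 3 genes that passed the filter were recomputed in other fits. S100a8 lay between 0.35 and 1.75 and S100a9 between 0.37 and 1.36, each lowest without PC-mut-795 and highest without both libraries with Xist, a fit in which PC-mut-795 alone stood against the wild types. Camp lay between 0.06 and 1.84 in the same fits. With the trend of each library on GC content removed, S100a8 was at 0.74 (SE 0.38), S100a9 at 0.59 (SE 0.31) and Camp at 1.24 (SE 0.69), where the GC content of the longest transcript is 44.2%, 45.1% and 54.2%. Each of the 3 stayed above 0 in all 17 alternatives, which reuse the same libraries and so are not independent support. Without PC-mut-795 they were at 0.35 (SE 0.35), 0.37 (SE 0.32) and 0.06 (SE 0.81).

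**Figure D4:**
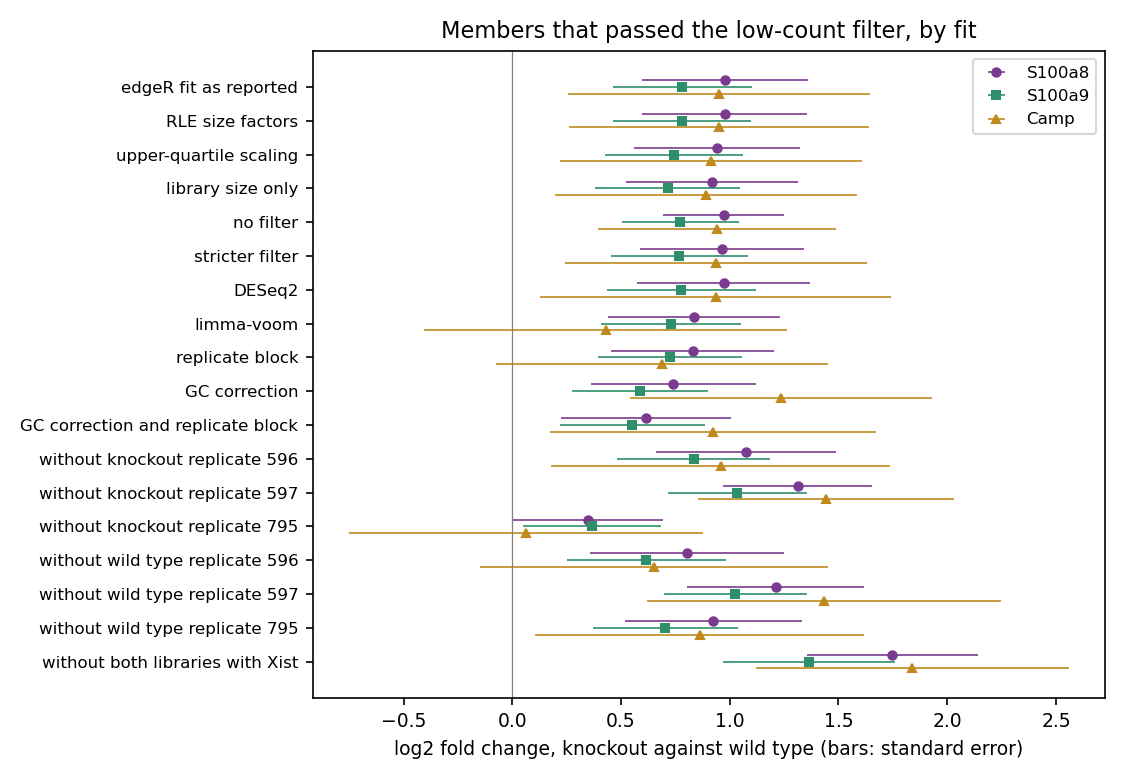
Knockout over wild type, as log2 fold change, for S100a8, S100a9 and Camp in the edgeR fit as reported and in 17 alternative fits, with bars for the standard error. Without PC-mut-795 the 3 points lie at 0.35, 0.37 and 0.06, the lowest of the plot.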

How the data were processed

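The deposited matrix gives raw read counts for each gene, in columns named after sorted alignment files per the file headers. The submitters' processing notes name GRCm38.p6 and DESeq2. The version of DESeq2, the counter and its handling of strand and multi-mapping reads were not stated in any source used here. Per the labels' protocols, libraries were made from amplified cDNA of low-input RNA (SMART-Seq v4, Nextera XT), so counts are not independent molecules and reads of antisense partners cannot be told apart. The authors' deposited table holds log2 fold changes.

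The 8 genes and the gene lists were chosen with earlier results of these data known. The test was edgeR 4.0.16 (glmQLFit, glmQLFTest) in R 4.3.3, with TMM scaling and filterByExpr by group, two-sided, threshold 0.05 after Benjamini-Hochberg adjustment over 15712 genes. CPM uses effective library sizes. The SE of an edgeR log2 fold change is its absolute value divided by the square root of the quasi-likelihood F. It therefore restates the test statistic and was not estimated separately. The procedure was tested on simulated data. Exon lengths, GC content and positions are from GENCODE M21, and promoter windows from RefSeq. Named genes followed a fixed rule: the 8 genes, Fbn1, a fixed set of neutrophil genes, up to 4 abundant genes a list, and the 10 genes most alike in pattern. Genes named otherwise, after their values were seen, are the S100 genes of chromosome 3, Cxcl1 to Cxcl5, Csf3, Icam1, Alas2, Scx, BC100530, Ly6c2, Cx3cr1 and markers at 0. Xist was also named outside the rule. No replicates agreed within sampling noise (chi-square per degree of freedom 21.6 to 62.5). Alternatives used DESeq2 1.42.0 and limma 3.58.1.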

Additional observations from a re-analysis of the deposited data

How the results depend on the processing

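The number of genes called was 1 with RLE size factors, upper-quartile scaling, library size only, a CPM filter, limma-voom, the replicate block and the GC correction, an alternative that, like its fit with the block, was chosen after seeing the data. It was 270 without a filter, 4 by DESeq2, and 4 with the GC correction and the replicate block together. With 1 library left out it was between 1 and 1517, at 1517 without PC-WT-795 and 12 without PC-mut-795. Without both libraries with Xist edgeR called 0 genes, with 451 at an unadjusted p under 0.05. In that fit PC-mut-795 alone stood for knockout and the wild-type libraries alone gave the spread, so these counts say nothing about Xist. All 8 genes were tested by edgeR without a filter, and none was called. Between 3 and 5 of them were tested in the other edgeR and limma-voom fits with more than 1 library a group. None of those was called either. All 8 were in the DESeq2 fit with no call, where genes of low mean count are given no adjusted p. With the replicate block the log2 fold changes were 0.83 for S100a8, 0.73 for S100a9 and 0.69 for Camp. The summed level of the 8 genes in knockout over wild type was between 1.25 and 2.20 with 1 library left out, lowest without PC-mut-795, and 2.86 without both libraries with Xist. It was 1.48 without S100a8 and S100a9, and the median ratio over the 8 genes was 1.76. With 1 library left out, the ratio of mean CPM lay between 0.752 (without PC-mut-795) and 3.05 (without PC-WT-597) for Retnlg and between 0.493 (without PC-mut-596) and 1.11 (without PC-WT-596) for Mpo. It lay between 1.21 and 9.85 for Ngp and between 1.24 and 3.61 for Ltf, each lowest without PC-WT-795 and highest without PC-WT-597. The GC correction also moved Mmp9 to -0.24, Mmp8 to 0.33 and Runx1 to 0.13. S100a11 passed in 2 fits, without a filter (edgeR adjusted p = 0.00521) and without PC-WT-795 (edgeR adjusted p = 0.0117). Deviations of same-numbered libraries from their group mean had r of -0.18, 0.24 and -0.20 in the order of the titles' numbers. Other pairs of a knockout and a wild-type library lay between -0.29 and 0.38. The deviations are centred within groups of 3 libraries, so these r cannot decide whether the numbers mark pairs. The edgeR fit as reported did not use the numbers, and the replicate block did. Depth limits all of the 8 genes but S100a8 and S100a9, which had at least 63 counts in every library.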
